A study of Arabidopsis thaliana with 4 samples.

Results

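The 10 genes described here encode translocases of the inner mitochondrial membrane (TIM) of Arabidopsis thaliana, and they were taken by locus tag from 27444 nuclear protein-coding genes. They are the 3 copies of TIM17, the 3 copies of TIM23 and the small proteins TIM8, TIM9, TIM10 and TIM13. A gene counted as having a peak when a peak of a list overlapped the 500 bp on either side of one of its ends by at least 1 bp. The members were selected on their names, with the peaks of these lists near them already known, so their counts are a description and carry no test.

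The peaks are of TRB1, a Myb-related plant protein known from binding telomeric repeats, in seedlings aged 14 days. Seedlings of the line TRB1pro:TRB1-GFP, homozygous for TRB1 fused to green fluorescent protein under the TRB1 promoter, were precipitated on a GFP-Trap matrix, and wild-type (Wt) seedlings on the same matrix were the control. Wt seedlings were precipitated with the antibody anti-TRB1 (5.2), and Wt seedlings without it were the control. Each of these 4 groups had 1 library, of whole seedlings, and the labels do not say whether the tagged line still has its own TRB1.

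Most mitochondrial proteins are made in the cytosol and cross the outer membrane through the TOM complex. TIM17 and TIM23 form the core of the inner membrane translocase that passes proteins with a presequence toward the matrix. The small TIM proteins, studied most in yeast, work in the space between the membranes, where TIM9 pairs with TIM10 and TIM8 with TIM13, and keep hydrophobic proteins soluble on their way. In plants several of these subunits are encoded by more than 1 gene.

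The data were 4 peak lists. The authors deposited 3975 peaks for replicate 1 and 7480 for replicate 2, each with a score on a scale that is not given, 24219 peaks of a list named after the peak caller PePr, each with a p-value, and 4995 genomic intervals with positions only. All 4995 genomic intervals lay wholly within a peak of each of the other 3 lists, so they are not a separate measurement. The sources used here do not say which precipitation stands behind replicate 1 and which behind replicate 2, nor how deeply each library was read. A longer list is therefore not a sign of more binding.

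Of the 10 TIM genes, 7 had a peak in the genomic list, where 19.6% of all nuclear protein-coding genes had one. The same count was found in the replicate 1 list, 7 of 10 against 24.6% of all genes. In the replicate 2 list all 10 had a peak, against 41.4% of all genes, and in the PePr list all 10 had one, against 68.7%. The 7 genes were TIM17-1, TIM17-3, TIM23-2, TIM23-3, TIM8, TIM9 and TIM10, and each had a peak in all 4 lists. That was fixed by the genomic list, whose intervals all lie within peaks of the other lists. Of all genes, 19.6% had a peak in all 4 lists. TIM17-2, TIM23-1 and TIM13 had one in the replicate 2 and PePr lists and in neither of the others, a pattern that 16.4% of all genes showed. Among the 10 no gene was without a peak, whereas 26.9% of all genes had none in any list. With these members chosen after results were known, the counts say nothing about whether TIM genes differ from other genes.

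**Figure D1:**
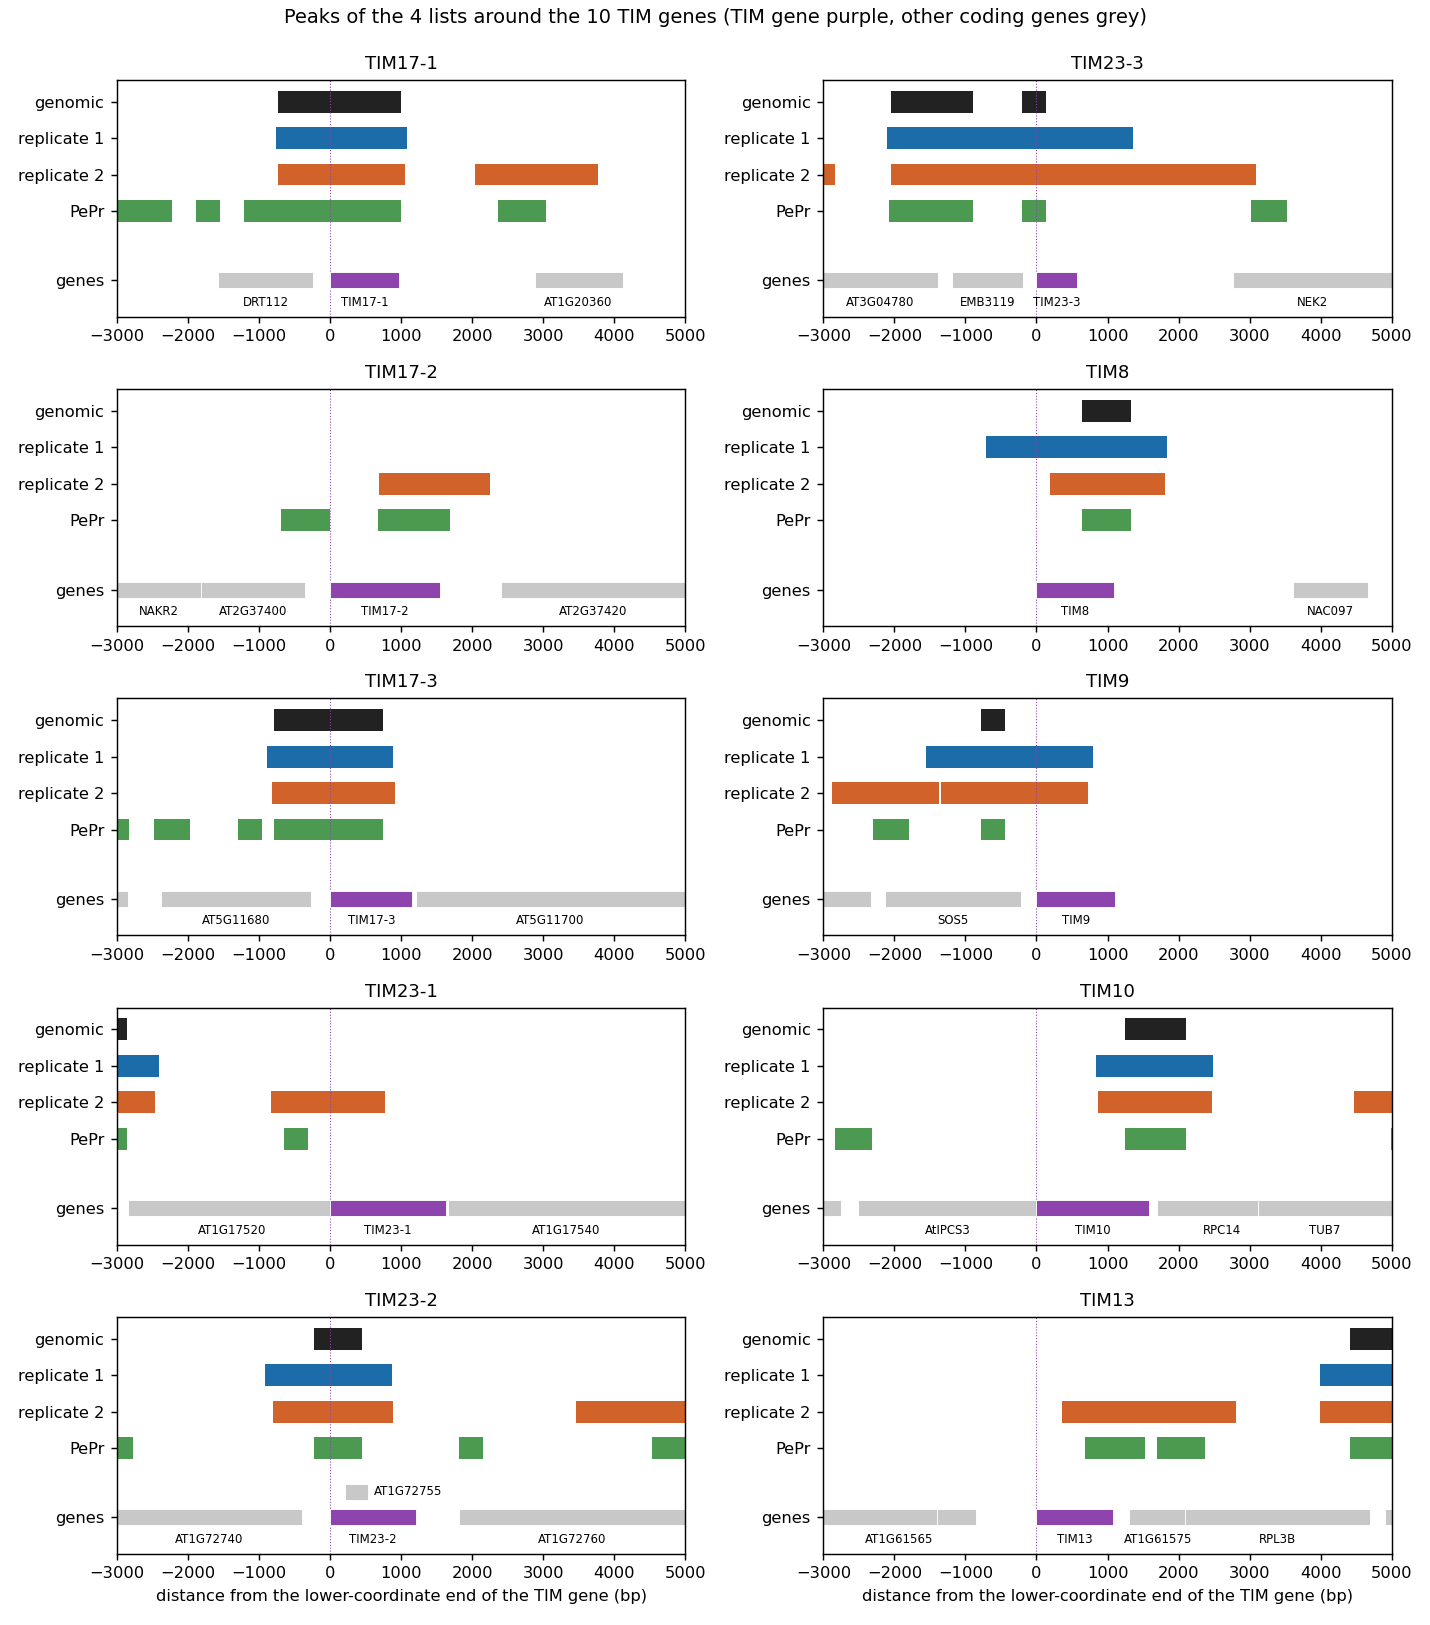
Peaks of each list (rows) around the 10 TIM genes, against the distance in bp from the lower-coordinate end of the TIM gene; purple bars are TIM genes, grey bars other protein-coding genes (overlapping genes are drawn over each other), and features are cut at the edges of each panel. At 7 genes all 4 rows have a bar within 500 bp of an end of the TIM gene, and at TIM17-2, TIM23-1 and TIM13 only the replicate 2 and PePr rows do; the genomic and PePr bars of TIM9 lie 436 bp off the gene and the PePr bar of TIM23-1 307 bp off.

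The 3 copies of TIM17, known from yeast as a membrane-embedded subunit of the presequence translocase, had unlike peaks. TIM17-1 (AT1G20350), a copy known in Arabidopsis from work on seed germination, lay under the PePr peak with the smallest p-value of the whole list. In the authors' deposited list that peak (chromosome 1, 7042421 to 7044630) had p = 2.7e-101 and an adjusted p of 9.4e-96, and the next of the 24219 peaks had p = 6.6e-79. It covered the whole gene and was 2210 bp wide, against a median width of 510 bp in the PePr list.

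The other lists also covered TIM17-1 from end to end. The replicate 1 peak (7042868 to 7044711) and the replicate 2 peak (7042895 to 7044676) both had a score of 3100 in the authors' deposited lists. That score was held by 1124 replicate 1 peaks (28.3%) and by 876 replicate 2 peaks (11.7%), with 44 and 41 peaks above it, so it places the 2 peaks in the upper part of each list and no more closely. Their centres were 4 bp apart, and the replicate 2 peak lay wholly within the replicate 1 peak. The genomic interval (7042895 to 7044630) was 1736 bp wide and the widest at any TIM gene.

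TIM17-3 (AT5G11690) had a peak in each list across one of its ends. The genomic interval and the PePr peak were the same stretch (chromosome 5, 3760401 to 3761930), with p = 3.4e-32 in the authors' deposited list, rank 309 of 24219. The score was 3100 in replicate 1 and 887 in replicate 2, where it exceeded 61.4% of the peaks. The replicate 1 and replicate 2 peaks had centres 50.5 bp apart, and these centres lay 8.5 and 42 bp from the end of the gene. TIM17-3 was therefore high in the replicate 1 and PePr lists and nearer the middle of the replicate 2 list.

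TIM17-2 (AT2G37410), the copy known as the main TIM17 of Arabidopsis tissues, had no peak in the replicate 1 and genomic lists. The nearest replicate 1 peak ended 23512 bp away. The replicate 2 peak (chromosome 2, 15698497 to 15700058) had a score of 649, close to the list median of 571. TIM17-2 was the only TIM gene with 2 PePr peaks near its ends, one 10 bp outside it (15697121 to 15697800) and one across the other end (15698481 to 15699500). In the authors' deposited list these had p = 3.0e-13 and p = 2.6e-15. By the smallest PePr p-value of each copy, TIM17-2, the copy without a replicate 1 peak, stood behind both of the others.

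The TIM23 copies, which encode the subunit known from yeast to bind the presequence, had PePr peaks with larger p-values than the TIM17 copies. The PePr p-values of the authors' deposited list were 3.0e-06 at TIM23-1, 1.4e-08 at TIM23-2 and 5.1e-06 at TIM23-3, all larger than the list median of 5.5e-09. The last of these was the largest p-value at any TIM gene.

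TIM23-2 (AT1G72750), a copy known in Arabidopsis for its tie to respiratory complex I, had a peak in all 4 lists at 1 end. The replicate 1 peak (chromosome 1, 27382406 to 27384186) had a score of 1086 and the replicate 2 peak (27382512 to 27384208) a score of 2094. In the authors' lists the first exceeded 26.2% of the replicate 1 peaks and the second 80.7% of the replicate 2 peaks, so this gene stood low in one list and high in the other. The centres of the 2 peaks were 64 bp apart and lay 24 and 40 bp from the end of the gene.

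TIM23-3 (AT3G04800), at 567 bp the shortest of the 10 genes, lay under the widest peaks. The replicate 1 peak (chromosome 3, 1312375 to 1315836) was 3462 bp wide with a score of 1505, and the replicate 2 peak (1312438 to 1317567) was 5130 bp wide with a score of 1235. Both covered the whole gene and reached over its neighbours, and their centres were 897 bp apart, the largest distance at any TIM gene. Within that stretch the PePr list had a narrow peak at an end of TIM23-3 (1314271 to 1314610) and, 889 bp from the gene and so outside the rule, a peak of 1190 bp (1312401 to 1313590). The authors' deposited list gives the second peak p = 2.5e-31, so the smaller p-value in this stretch was not at TIM23-3 itself.

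TIM23-1 (AT1G17530) had the lowest values of the 10 genes in the replicate 2 list. Its replicate 2 peak (chromosome 1, 6026649 to 6028253) had a score of 185, above 20.4% of the peaks of the authors' list, and its centre lay 36 bp from an end of the gene. The PePr peak (6026841 to 6027180) was 340 bp wide and lay 307 bp outside the gene. The nearest replicate 1 peak, with a score of 724, ended 2408 bp from the gene.

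Among the small TIM genes 3 of 4 had peaks in all lists, against 19.6% of all genes, and TIM10 (AT2G29530) had the highest scores. TIM10 encodes the partner of TIM9 in the soluble complex that carries hydrophobic proteins. Its replicate 1 peak (chromosome 2, 12641632 to 12643292) and replicate 2 peak (12641661 to 12643268) both had a score of 3100 in the authors' deposited lists, and their centres were 2.5 bp apart. The genomic interval and the PePr peak were the same stretch (12642051 to 12642900), 88.5 bp outside the gene by its centre, with p = 6.5e-10 in the authors' deposited list. At TIM10 the scores were as high as at TIM17-1, while the PePr p-value ranked 10136 of 24219.

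TIM9 (AT3G46560), a gene annotated as embryo defective when mutated, lay below the median of each list that carries a score or p-value. The replicate 1 score was 763 (chromosome 3, 17136925 to 17139272), above 7.60% of the peaks of the authors' list, and the replicate 2 score was 493 (17137136 to 17139199), above 45.9%. The PePr p-value was 3.5e-07 for a peak of 340 bp (17137701 to 17138040), which was also the genomic interval. That interval ended 436 bp from the gene, so TIM9 was the member nearest the 500 bp limit, and at 200 bp it had no genomic or PePr peak. The wide replicate peaks did reach over the end of TIM9, with centres 69 bp apart. Just beyond the limit, and not counted, lay PePr peaks 607 bp from TIM23-2 and 626 bp from TIM13.

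TIM8 (AT5G50810), whose product partners TIM13, had a peak in all lists, and the replicate 1 peak covered the whole gene. The replicate 1 peak (chromosome 5, 20674892 to 20677444) had a score of 1560 and the replicate 2 peak (20675789 to 20677410) a score of 964. The first exceeded 44.2% of its list and the second 63.4%. The genomic interval and PePr peak (20676251 to 20676930), with p = 6.0e-09 in the authors' deposited list, had their centre 112 bp inside the gene. TIM8 was the only one of the 10 genes whose peaks were shared with no other protein-coding gene in any list, and the nearest end of another one was 2520 bp away.

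TIM13 (AT1G61570) had no replicate 1 peak but one of the smaller PePr p-values. The PePr peak (chromosome 1, 22719141 to 22719990) had p = 8.5e-26 in the authors' deposited list, rank 790 of 24219, and its centre was 30.5 bp outside the gene. The replicate 2 peak (22718816 to 22721277) had a score of 1101, above 66.4% of the list. A replicate 1 peak with a score of 3100 began 2918 bp from TIM13, too far to count. Thus a small PePr p-value and a replicate 1 peak did not go together at this gene.

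**Figure D2:**
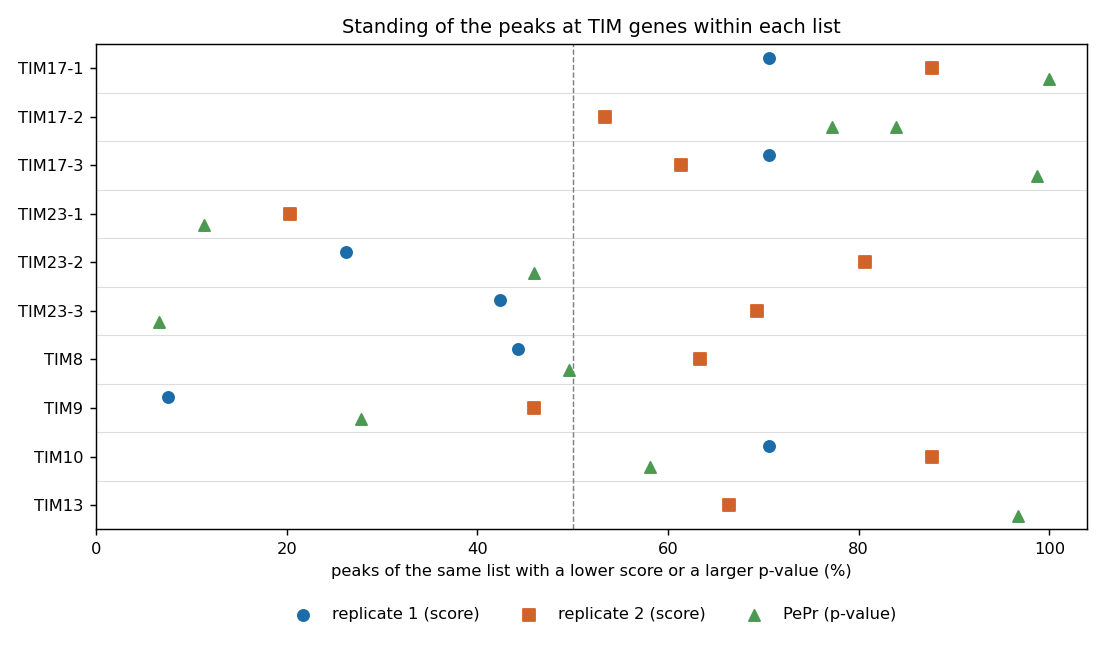
Standing of each TIM gene's peaks within its own list, as the percentage of peaks of that list with a lower score (replicate 1, replicate 2) or a larger p-value (PePr); TIM17-2 has 2 PePr peaks, a missing symbol means no peak, and the dashed line marks 50%. TIM17-1 lies furthest right in the PePr list, TIM23-1 and TIM9 lie left of the line in every list shown in which they have a peak, and the 3 replicate 1 symbols at 70.6% are tied at a score of 3100.

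By score, the TIM genes did not all lie among the stronger peaks of the lists. In replicate 1 the scores of the 7 member peaks ran from 763 to 3100 with a median of 1560, and the median of all 3975 peaks was 1772. In replicate 2 the 10 member peaks ran from 185 to 3100 with a median of 1032, and the median of all 7480 was 571. Of the 11 PePr peaks at TIM genes, 6 had a p-value below the list median and 5 above it. The score of 3100 was held by 3 of the replicate 1 peaks, at TIM17-1, TIM17-3 and TIM10, and by 2 of the replicate 2 peaks, at TIM17-1 and TIM10.

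Peak centres lay close to an end of the TIM gene. In the genomic list the distance from centre to nearest end ran from 22.5 bp at TIM17-3 to 606 bp at TIM9, with a median of 111 bp. It ran from 8.5 to 534 bp in replicate 1 and from 36 to 512 bp in replicate 2. Every member peak of these 2 lists covered an end, as did 6 of the 7 genomic intervals. Centres fell inside the gene for 3 genomic intervals, 2 replicate 1 peaks and 6 replicate 2 peaks. Because the gene table used gives no strand, the start and the stop of a gene were not told apart. Nearness to an end is in part set by the rule, which selects peaks near ends.

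**Figure D3:**
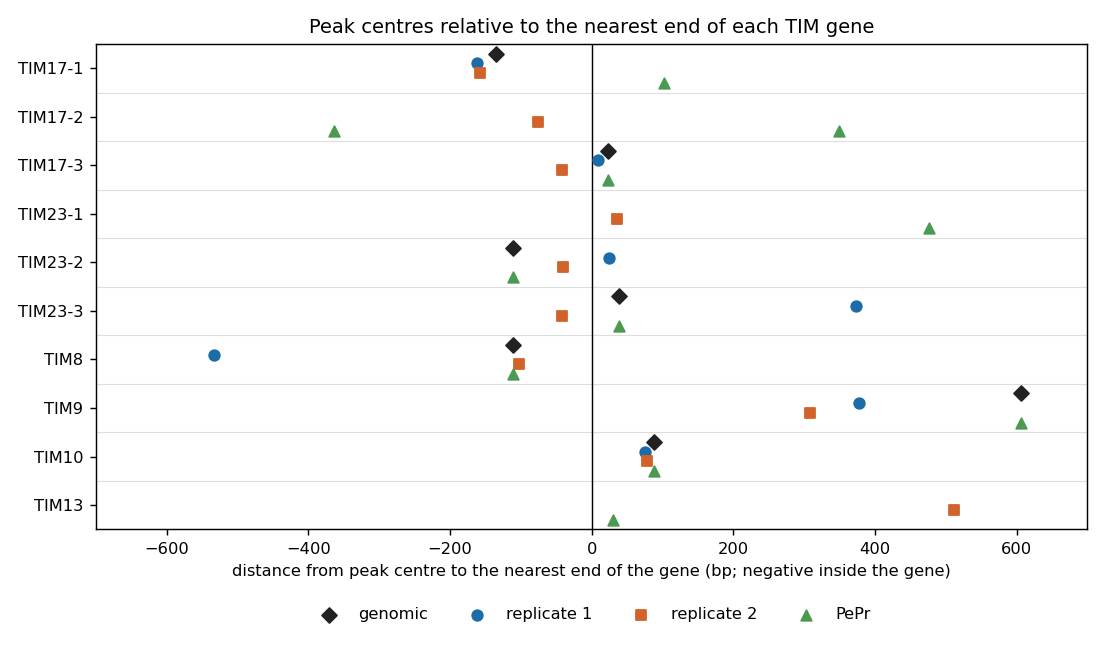
Distance in bp from the centre of each peak to the nearest end of its TIM gene, negative where the centre is inside the gene, with 1 symbol per peak and list. Genomic and PePr symbols coincide at every gene but TIM17-1 among the 7 genes with a genomic interval, and TIM9 stands furthest out at 606 bp.

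The peaks of both replicate lists overlapped each other at all 7 genes that had both. These 7 genes also had a genomic interval, and every genomic interval lay within a peak of both replicate lists. Some overlap was therefore fixed in advance and is not a measure of agreement. The share over all genes was not computed. The overlap covered at least 50% of both peaks at each of the 7. The centres were within 100 bp of each other at 5 genes, with a median distance of 64 bp, and further apart at TIM8 (432 bp) and TIM23-3 (897 bp). At TIM8 the replicate 2 peak lay wholly within the wider replicate 1 peak. Of the 7 genomic intervals, 6 were whole PePr peaks, and the one at TIM17-1 was a PePr peak trimmed at 1 side.

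Most of the peaks could be assigned to a neighbour as well as to the TIM gene. Of the 7 genomic intervals, 6 were shared with at least 1 other protein-coding gene, and 8 such neighbours were counted. For 4 intervals, at TIM17-1, TIM17-3, TIM23-3 and TIM8, the end nearest to the centre was that of the TIM gene. For the other 3 it was that of a neighbour. The TIM genes are short, from 567 to 1629 bp with a median of 1133 bp against 2078 bp for all genes. An end of another protein-coding gene lay within 500 bp of an end for 9 of the 10, against 65.5% of all genes. Among the 7871 genes within the same range of lengths 18.1% had a peak in the genomic list, 22.3% in replicate 1, 39% in replicate 2 and 61.6% in the PePr list, slightly below the shares of all genes.

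At TIM10 the protein-coding neighbour was RPC14, annotated as a small subunit of RNA polymerase. The centre of the genomic interval was 27.5 bp from an end of RPC14 and 88.5 bp from an end of TIM10, and RPC14 was the nearer gene in all 4 lists. The long non-coding RNA gene AT2G08350 also shared the TIM10 peaks in all 4 lists, its end lying 539 to 553 bp from their centres. At TIM9 it was SOS5, a fasciclin-like arabinogalactan protein of the cell surface. There the centre of the genomic interval fell inside SOS5, 389 bp from its end, and 606 bp from TIM9, and SOS5 was again the nearer gene in all 4 lists. By the nearest end, the peaks at TIM10 and TIM9 went to the neighbour in every list.

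At TIM23-2 the nearest end was that of AT1G72755, a short gene that lies inside TIM23-2, at 99.5 bp against 111 bp in the genomic list. With the replicate 1 and replicate 2 peaks TIM23-2 itself was nearer. AT1G72740, on the other side, shared the same peaks, its end lying 507 bp from the centre of the genomic interval. At TIM23-1 the replicate 2 and PePr peaks were shared with AT1G17520, a gene that overlaps TIM23-1. Both peak centres lay inside AT1G17520, 114 and 555 bp from its nearest end. They lay outside TIM23-1, though closer to an end of it, at 36 and 477 bp.

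At TIM17-1 the neighbour was DRT112, one of the genes for plastocyanin, the copper protein that carries electrons in photosynthesis. The centre of the top PePr peak lay between both genes, 103 bp from TIM17-1 and 134 bp from DRT112, and that of the genomic interval inside TIM17-1, 371 bp from DRT112. TIM17-3 shared its genomic interval with AT5G11680 and AT5G11700, whose ends lay 253 and 1226 bp from the centre, against 22.5 bp for TIM17-3. TIM23-3 shared its own with EMB3119 at 153 bp, an embryo-defective gene, and with the long non-coding RNA gene AT3G01505 at 314 bp, against 38.5 bp for TIM23-3. The centre of the replicate 1 peak lay inside EMB3119, 182.5 bp from its end, and inside AT3G01505, 21.5 bp from its end, against 373.5 bp for TIM23-3. With the replicate 2 peak TIM23-3 was nearer, at 42.5 bp. AT3G04780 was reached by both replicate peaks of TIM23-3, and NEK2, a NIMA-related kinase gene, by the replicate 2 peak of 5130 bp.

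The replicate 2 peak at TIM13 also lay at AT1G61575 and at RPL3B, a gene for a protein of the large ribosomal subunit. Its centre was inside AT1G61575 and 512 bp from TIM13 and 514 bp from RPL3B. The narrower PePr peak separated them, with its centre 30.5 bp from TIM13 and 199.5 bp from AT1G61575, and did not reach RPL3B. A transfer RNA gene, AT5G50805, was reached by the replicate peaks at TIM8, at 875 and 1307 bp from their centres, and not by its genomic interval. At TIM17-2 the PePr peak 10 bp outside the gene was nearer to AT2G37400 (3.5 bp) than to TIM17-2 (350 bp). The replicate 2 peak there was shared with AT2G37420, whose end lay 934 bp from its centre.

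Peaks at other genes of mitochondrial import and of related proteins were counted over a list by locus tag. The 34 of these with a name in the gene table, as symbol or synonym, are described by role. The 34 include 8 other genes of the TIM17/TIM22/TIM23 superfamily, counted as related proteins, of which 1 had a genomic list peak. In the genomic list 10 of the 34 had a peak (29.4%), in replicate 1 also 10, in replicate 2 there were 21 (61.8%) and in the PePr list 30 (88.2%), beside the background of 19.6%, 24.6%, 41.4% and 68.7% of all genes. A further 11 listed locus tags have no name in that table, and 7 of them had a genomic list peak: AT3G09700, AT5G03030, AT1G18320, AT3G25120, AT1G50400, AT5G05520 and AT2G19080. With these included, 17 of 45 listed mitochondrial and related genes had one (37.8%), so the share depends on which genes are counted. The list was drawn up with results known and was not tested.

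Of 4 partners of TIM17 and TIM23, 1 had a genomic list peak, against 19.6% of all genes. TIM44-1 and TIM44-2, whose yeast relative tethers the import motor to the channel, and TIM50, the receptor of the translocase in yeast, had peaks in the replicate 2 and PePr lists alone. That pattern was shown by 16.4% of all genes. SD3, the Arabidopsis gene for the TIM21 subunit, had a genomic interval (chromosome 4, 13091 to 13770), with scores of 3100 in replicate 1 and 359 in replicate 2 of the authors' lists. Of 6 named genes of the import motor, which pulls proteins into the matrix, 3 had one: TXR1, which encodes PAM16 (chromosome 3, 21910281 to 21910960), and both mitochondrial HSP70 genes, mtHsc70-1 (chromosome 4, 17827561 to 17828580) and MTHSC70-2 (chromosome 5, 2974661 to 2976020). The nucleotide exchange factor genes MGE1 and MGE2 did not, but had replicate 2 and PePr peaks, the same pattern as 16.4% of all genes.

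The carrier translocase TIM22 is related to TIM17 and TIM23, and its named gene MEE67 had a genomic interval (chromosome 3, 3115185 to 3116440), with p = 2.8e-30 at its smallest in the authors' deposited PePr list. Of 8 other named genes of the same superfamily, OEP16-3 alone had one (chromosome 2, 17589901 to 17590580). The TOM complex had a genomic interval at 3 of 11 named genes (27.3%, beside the same 19.6%). They were TOM20-2, a presequence receptor (chromosome 1, 9514561 to 9515580), TOM22-I, whose yeast relative is the central receptor (1050601 to 1051960), and TOM7-2, a small subunit (23832981 to 23834000). The copies TOM20-1 and TOM20-3 had no peak in any list. MIA40, known in yeast as the oxidoreductase that folds the small TIM proteins, had none in any list, and its partner Erv1 only a PePr peak. Of all genes, 26.9% had no peak in any list and 68.7% had a PePr peak. Of 2 named processing peptidase genes, which remove the presequence, MPPBETA alone had a genomic list peak, beside 19.6% of all genes. It had intervals near both ends (chromosome 3, 364821 to 365840 and 368901 to 371450), with centres 206.5 and 1264.5 bp outside the gene. The second thus lay mostly off the gene.

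For the chloroplast, the TOC and TIC complexes that import proteins across its envelope had a genomic list peak at 7 of 23 genes (30.4%), a replicate 1 peak at 8 (34.8%), a replicate 2 peak at 12 (52.2%) and a PePr peak at 19 (82.6%). The shares of all genes were 19.6%, 24.6%, 41.4% and 68.7%. The 7 were the receptor genes TOC159, Toc90 and TOC64-III and the inner envelope genes TIC110, Tic20-IV, Tic20-V and TIC21. No test of a difference from the TIM genes or from the mitochondrial list was made.

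**Figure D4:**
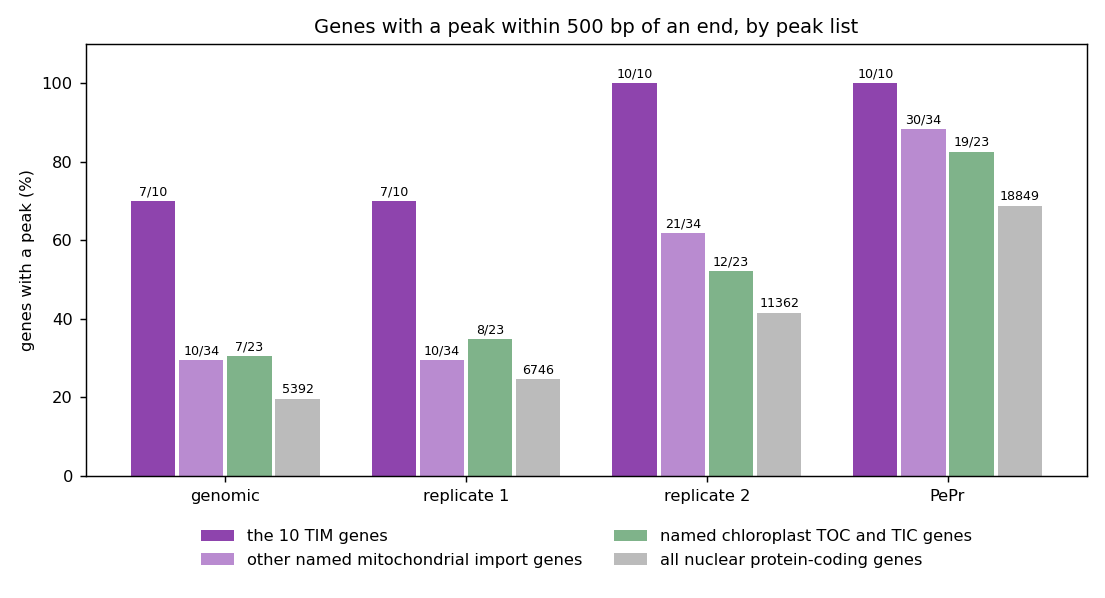
Percentage of genes with a peak within 500 bp of an end, in each peak list, with counts above the bars. Shown are the 10 TIM genes, 34 other named genes of mitochondrial import or related proteins and 23 chloroplast TOC and TIC genes. All 27444 nuclear protein-coding genes are shown beside them. The bars of the TIM genes stand at 7 of 10 in the genomic and replicate 1 lists and at 10 of 10 in the other lists, where the background is also higher; there are no error bars because each list comes from 1 call.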

How the data were processed

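TRB1 chromatin immunoprecipitation was read from 4 peak lists of the whole series, from 4 libraries in 4 groups. Bowtie2 2.2.2, SAMtools, bedtools and MACS, and the builds TAIR9 and TAIR10, are named in the submitters' processing notes. Thresholds, depth, pooling and the control library, if any, that each list was called against are not given in the sources seen. No list has a header. The authors deposited a score of unknown scale for each replicate 1 and replicate 2 peak. They deposited a p-value, at most 1.0e-05, and an adjusted one for each PePr peak; 2 further columns of that list are undocumented and were left out. Peak scores and p-values are the authors' and were compared only within a list.

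Positions are those of the lists, counted from 1. Genes were placed with a RefSeq table of TAIR10.1, none of whose coordinates are printed; all 10 members and all 68 listed import genes were found in it. It has no strand and no sequence, so the planned comparisons of promoter motifs and of protein sequences and the alternative with gene starts only were not run. The members, the gene lists and the rule for named genes (all members, genes sharing their peaks, import genes with a genomic list peak) were chosen with earlier results of these data known. No p-value was computed: each group had 1 library. Named here beyond that rule, chosen after their values were seen, are the subunits without a genomic list peak. Counting used Python 3.11.15 with pandas 2.3.3 and was tested on simulated peaks. Alternatives were 200 and 1000 bp, overlap with the gene, peak centres, the nearest end only and the 50% of peaks of higher rank. Genomic intervals were ranked by the summed score ranks of the replicate 1 and replicate 2 peaks overlapping them.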

Additional observations from a re-analysis of the deposited data

How the results depend on the processing

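Of 24 counts of TIM genes with a peak under alternatives, 19 stayed within 1.5 times the reported count. When a peak counted for no gene but the one whose end was nearest, 4 TIM genes kept a genomic list peak and 4 a replicate 1 peak, where 13.5% of all genes had one in either list, and TIM9 and TIM10 had none in any list. With the 50% of peaks of higher rank, 3 TIM genes had a genomic list peak (10.4% of all genes) and 3 a replicate 1 peak (13.1%), namely TIM17-1, TIM17-3 and TIM10. In the PePr list 5 had one (46.9%). Genomic intervals have no score and took their rank from the replicate 1 and replicate 2 peaks over them. The genomic count is therefore not separate from the replicate counts. The number with overlapping replicate peaks was 7 also when 50% of both peaks had to be shared. Some overlap at these genes was fixed in advance by their genomic intervals.

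For the 34 other named genes of import or related proteins, the alternatives were chosen after seeing the data. They gave 4 with a genomic list peak among the higher 50% (10.4% of all genes). In replicate 1 they gave 6 (nearest end, 13.5%) and 4 (higher 50%, 13.1%). In replicate 2 they gave 11 (nearest end, 25%) and 9 (higher 50%, 23.5%). The percentages are those of all genes, and 19 of 24 counts stayed within 1.5 times. The cause was not tested. The nearest end setting counts each peak for a single gene, and the other keeps only the peaks of higher rank. Counting only gene starts was not run, for lack of strand. No paired analysis was possible because each group had 1 library. Read depth is unknown, so an absent peak is not shown to be absent binding.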
